A study of Mus with 4 samples.

Results

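A list of 10 genes that airway secretory cells are known for was followed through 4 RNA-seq libraries of newborn mouse heart. It holds *Scgb1a1*, *Scgb3a2*, *Bpifa1*, *Bpifb1*, *Reg3g*, *Cyp2f2*, *Lypd2*, *Wfdc2*, *Agr2* and *Tff2*, out of 55487 gene IDs in the table. They were chosen from their measured values, because each is high in miR-187 replicate 2 and low in the other 3 libraries. That difference is therefore described here without a test, and nothing is supported with it. Symbols were paired with Ensembl IDs in the list of genes itself, and all 10 IDs were found.

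The libraries came from hearts at postnatal day 0 (P0), with 2 from wild-type (WT) mice and 2 from mice that overexpress miR-187. In the knock-in mice, made on a C57BL/6J background, a single copy of mouse miR-187 inserted at *Rosa26* is driven by the *Tek* (*Tie2*) promoter, which is active in endothelial cells. The labels give neither zygosity nor litter, while the methods of the study name homozygous and WT animals and speak of cardiac endothelial cells; the labels name heart, and their wording is followed. Nothing states whether a library came from 1 animal or from pooled animals, so the spread between replicates may be technical.

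Values are the authors' FPKM, a fragment count scaled to transcript length and to the size of the library, and can be compared between genes because they are per length. The table holds no counts, so the depth of the libraries is unknown and no counting interval or detection limit is given. The sums of FPKM lay between 750826 and 807359, and 44825 IDs were above 0 in miR-187 replicate 2, against 50294 to 53180 in the other 3 libraries. The part of this difference in the values below was not tested. A value of 0 may mean that no transcript was there or that its level could not be estimated. In bulk RNA, more cells of a type and more RNA per cell cannot be told apart.

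Secretory cells line the conducting airways from trachea to bronchioles. The club cells among them release secretoglobins and antimicrobial proteins into the fluid over the epithelium and carry cytochrome P450 enzymes that act on inhaled chemicals, while goblet cells release mucus and the trefoil peptides that accompany it. Heart muscle, cardiac endothelium and cardiac fibroblasts are not known for these products.

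In miR-187 replicate 2 the 10 genes ran from 10.4 FPKM for *Bpifb1* to 3297 FPKM for *Scgb3a2*, with a median of 64.9 FPKM. Across the other 3 libraries the 30 values ran from 0 to 2.20 FPKM, and 27 of them were below 1 FPKM. The lowest value of the list in miR-187 replicate 2 thus lay above the highest value of the list anywhere else. The list summed to 6.64 FPKM in WT replicate 1, 4.52 FPKM in WT replicate 2, 4.45 FPKM in miR-187 replicate 1 and 5129 FPKM in miR-187 replicate 2. The last sum was 772 times the highest of the others and made up 0.647% of all FPKM in its library, against at most 0.000823% elsewhere.

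**Figure D1:**
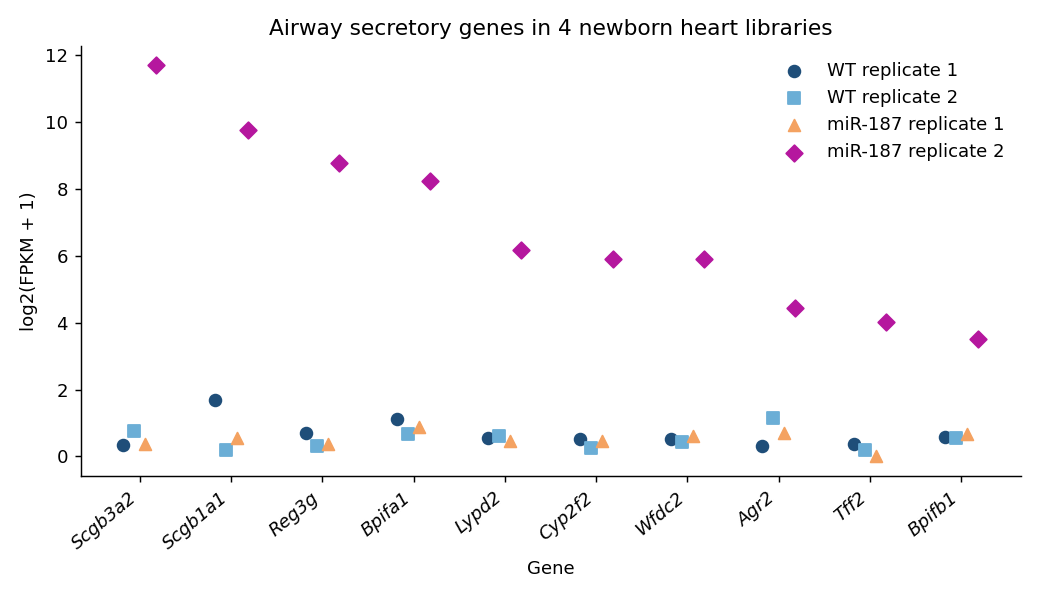
Level of each of the 10 airway secretory genes in each library, as log2(FPKM + 1), with 1 point per library and genes ordered by their value in miR-187 replicate 2. The 10 points of miR-187 replicate 2 lie above all other points, down to *Bpifb1* at 10.4 FPKM, whereas the other 3 libraries lie at 2.20 FPKM or less.

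The secretoglobins, small secreted proteins of the airway lining, had the highest values. *Scgb3a2* (ENSMUSG00000038791.14) had 0.269 and 0.700 FPKM in WT replicates 1 and 2, 0.303 FPKM in miR-187 replicate 1 and 3297 FPKM in miR-187 replicate 2. It was the 25th ID by level in that library, accounted for 64.3% of the sum of the list and was 4710 times the highest of the other libraries. *Scgb1a1* (ENSMUSG00000024653.2), the club cell secretory protein, measured 2.20 and 0.138 FPKM in the WT hearts, 0.479 FPKM in miR-187 replicate 1 and 856 FPKM in miR-187 replicate 2, where it ranked 65th. WT replicate 1 held the highest value outside miR-187 replicate 2, and the 2 WT libraries were 16.0 times apart. This was the widest spread among the 3 low libraries for any gene of the list that was above 0 in each of them.

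*Bpifa1* and *Bpifb1* encode secreted proteins of the BPI fold family, which act in defence of the airway surface. *Bpifa1* (ENSMUSG00000027483.7) had 1.17 and 0.579 FPKM in WT, 0.855 FPKM in miR-187 replicate 1 and 302 FPKM in miR-187 replicate 2, a 258-fold excess over WT replicate 1. *Bpifb1* (ENSMUSG00000027485.15) stood at 0.507 and 0.451 FPKM in the WT hearts and at 0.606 FPKM in miR-187 replicate 1. At 10.4 FPKM in miR-187 replicate 2 it was 17.2 times the highest other value. In the high library the 2 family members therefore stood far apart in level, while in the other libraries both lay between 0.451 and 1.17 FPKM.

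*Reg3g* (ENSMUSG00000030017.2), a secreted C-type lectin that kills Gram-positive bacteria, had 0.637 and 0.252 FPKM in WT, 0.290 FPKM in miR-187 replicate 1 and 439 FPKM in miR-187 replicate 2. *Wfdc2* (ENSMUSG00000017723.11), a secreted protein with whey acidic protein domains, was at 0.420 and 0.348 FPKM in the WT hearts, at 0.538 FPKM in miR-187 replicate 1 and at 58.3 FPKM in miR-187 replicate 2. *Lypd2* (ENSMUSG00000022595.7), of the Ly6 family of cysteine-rich proteins, gave 0.468 and 0.526 FPKM in the WT hearts, 0.368 FPKM in miR-187 replicate 1 and 71.1 FPKM in miR-187 replicate 2. All 3 were below 1 FPKM outside miR-187 replicate 2, with *Lypd2* and *Wfdc2* less spread between those libraries than *Reg3g*, and their excess there was 688-fold for *Reg3g*, 135-fold for *Lypd2* and 108-fold for *Wfdc2*.

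*Cyp2f2* (ENSMUSG00000052974.8), the club cell P450 that activates naphthalene, had 0.427 and 0.178 FPKM in WT, 0.368 FPKM in miR-187 replicate 1 and 58.8 FPKM in miR-187 replicate 2. Its level in the high library lay between those of *Lypd2* and *Wfdc2*.

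The genes of mucus-producing cells, *Agr2* and *Tff2*, were among the 3 lowest of the list in miR-187 replicate 2. *Agr2* (ENSMUSG00000020581.11) encodes a protein disulfide isomerase of the endoplasmic reticulum needed to make mucins, and had 0.239 and 1.20 FPKM in WT, 0.640 FPKM in miR-187 replicate 1 and 20.4 FPKM in miR-187 replicate 2. Its 17.0-fold excess was the smallest of the list. *Tff2* (ENSMUSG00000024028.7), a trefoil peptide secreted with mucus, had 0.302 and 0.150 FPKM in WT, was listed at 0 in miR-187 replicate 1 and had 15.3 FPKM in miR-187 replicate 2.

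The values within miR-187 replicate 2 spanned 316-fold between the 10 genes. *Scgb3a2*, *Scgb1a1*, *Reg3g* and *Bpifa1*, each above 100 FPKM, together held 95.4% of the sum of the list. Next came *Lypd2*, *Cyp2f2* and *Wfdc2* between 58.3 and 71.1 FPKM, then *Agr2*, *Tff2* and *Bpifb1* between 10.4 and 20.4 FPKM. With 1 library at these levels, the order of the 10 genes has no replicate check. By percentile among all IDs of this library the genes lay from 93.8 (*Bpifb1*) upward, with 99.9 for *Scgb1a1*.

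Outside that library the same genes sat in the middle of the range of all IDs. Their median was 0.448 FPKM in WT replicate 1, 0.399 FPKM in WT replicate 2 and 0.424 FPKM in miR-187 replicate 1, beside medians over all IDs of 0.562, 0.241 and 0.402 FPKM. The number of genes of the list above the median of its library was 3, 7 and 5. Their percentiles ran from 20.5 to 81.3 and from 33.7 to 77.7 in the WT libraries and from 2.89 to 70.4 in miR-187 replicate 1. The values of 1 FPKM or more were 3 in number and came from *Scgb1a1* and *Bpifa1* in WT replicate 1 and *Agr2* in WT replicate 2.

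**Figure D2:**
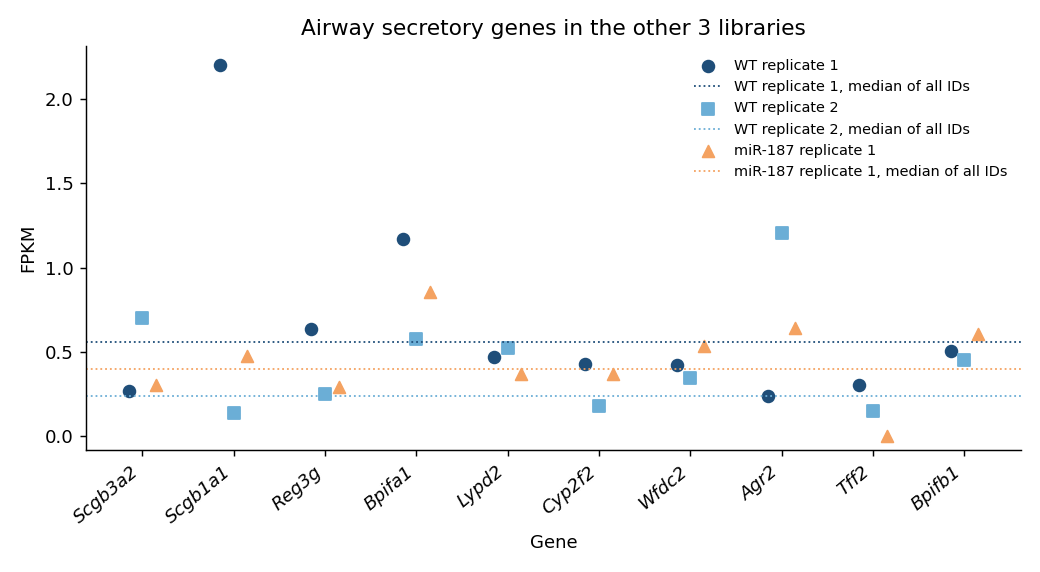
FPKM on a linear axis for the 10 genes in the libraries other than miR-187 replicate 2, with 1 point per library and dotted lines at the median of all IDs in that library. Points scatter on both sides of the medians of 0.562, 0.241 and 0.402 FPKM, and *Scgb1a1* in WT replicate 1 is the highest at 2.20 FPKM.

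The order of the genes in the low libraries did not follow that in miR-187 replicate 2. Spearman's rho over the 10 genes between miR-187 replicate 2 and WT replicate 1, WT replicate 2 and miR-187 replicate 1 was 0.33, 0.02 and -0.21, respectively. Between the low libraries themselves rho was -0.43 for the WT pair. With miR-187 replicate 1 it was 0.19 for the first WT library and 0.49 for the second. These are descriptions over 10 genes of unknown depth, most of them below 1 FPKM. The highest of the 3 low libraries was WT replicate 1 for 5 genes, WT replicate 2 for 3 and miR-187 replicate 1 for 2.

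To see whether the other miR-187 heart shared the pattern, miR-187 replicate 1 was set against the WT libraries. Its value lay within the range of the 2 WT values for 6 of the 10 genes, above both for *Bpifb1* and *Wfdc2*, and below both for *Lypd2* and *Tff2*. On the log2(FPKM + 1) scale, which understates differences at low values, it differed from the WT mean by a median of -0.07, with a range from -0.37 (*Scgb1a1*) to 0.15 (*Wfdc2*). Low values outside miR-187 replicate 2 were part of how the genes were chosen, and no test is given.

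How often any gene behaves like this in a single library was counted over all 55487 IDs. An ID was counted for a library when it reached 10 FPKM there and exceeded each of the other 3 libraries at least 10-fold. In miR-187 replicate 2, 16 IDs met this, which is 0.0288% of all, and the 10 airway secretory genes were among them. The choice of the list fixes that count, so nothing is read from it. The same count was 4 (0.00721%) in WT replicate 2 and 0 both in WT replicate 1 and in the other miR-187 library. With a minimum of 1 FPKM in place of 10, 26 IDs qualified in miR-187 replicate 2 and 10 in miR-187 replicate 1, beside 25 for WT replicate 1 and 7 for WT replicate 2, and these counts include the IDs at 10 FPKM or more.

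Raising the required fold to 20 left 12 IDs (0.0216%) in miR-187 replicate 2, of which 8 belonged to the list, without *Agr2* and *Bpifb1*. At 100-fold there were 9 IDs (0.0162%), 7 of them on the list, as *Tff2* with its 50.8-fold excess also fell away. No other library had an ID at 100-fold. The list was chosen for high values in miR-187 replicate 2 alone, so nothing is read from its share of these IDs. Within the list, *Bpifb1* with 10.4 FPKM and *Agr2* with 17.0-fold lay nearest to the limits, while the nearest of all 16 IDs was at 10.2-fold and is not on the list. Just outside were an ID with 124 FPKM at 9.61-fold and another with 9.46 FPKM at 11.2-fold, neither of them on the list.

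**Figure D3:**
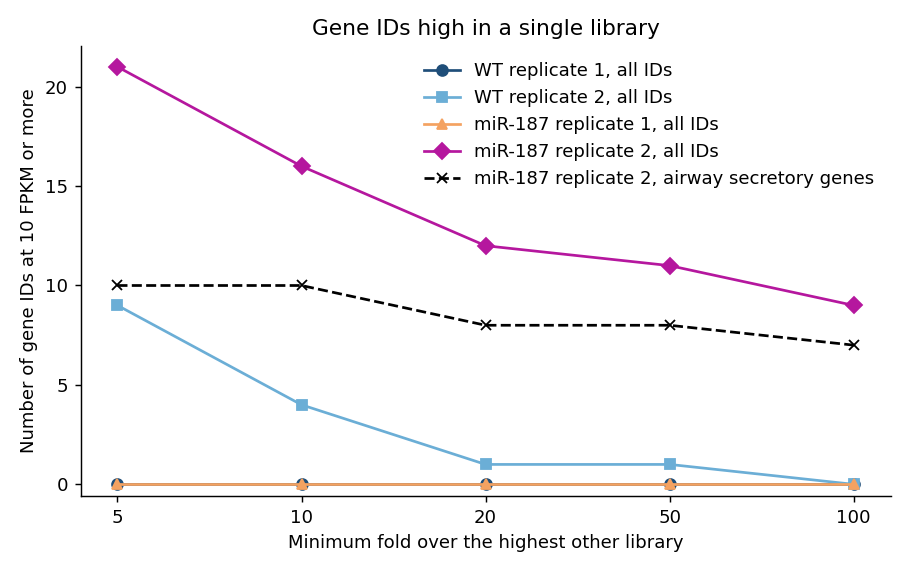
Number of gene IDs with at least 10 FPKM in a library and at least the fold on the horizontal axis over the highest of the other 3 libraries, with 1 line per library and a dashed line for the 10 airway secretory genes in miR-187 replicate 2. At 10-fold the counts are 16 in miR-187 replicate 2, 4 in WT replicate 2 and 0 in both replicate 1 libraries. Of the 9 IDs left at 100-fold, 7 are airway secretory genes. These were chosen for high values in miR-187 replicate 2 alone, so nothing is read from their share.

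The distance of miR-187 replicate 2 from the highest other library was also taken as a difference of log2(FPKM + 1). Its median over the list was 5.48, with a range from 2.83 (*Bpifb1*) to 10.92 (*Scgb3a2*), beside a median of -0.43 over the 14325 IDs whose mean reached 1 FPKM. The median gene therefore lay below its highest value elsewhere, while every gene of the list lay above it.

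The remaining 6 of the 16 IDs showed the pattern most like that of the list, as ordered by this distance over 4 libraries. They have no names in the sources used here. The nearest, ENSMUSG00000064057.12, measured 2.04 and 1.14 FPKM in the WT hearts, 0.937 FPKM in miR-187 replicate 1 and 1425 FPKM in miR-187 replicate 2, and its difference of 8.88 was exceeded by *Scgb3a2* alone within the list. ENSMUSG00000091228.1 was listed at 0 in WT and in miR-187 replicate 1 and had 23.3 FPKM in miR-187 replicate 2. The other 4 IDs had between 11.3 and 195 FPKM there and excesses from 10.2-fold to 75.9-fold. In contrast to the list, where no value outside miR-187 replicate 2 exceeded 2.20 FPKM, 2 of these 4 reached 11.7 and 19.2 FPKM in another library.

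**Figure D4:**
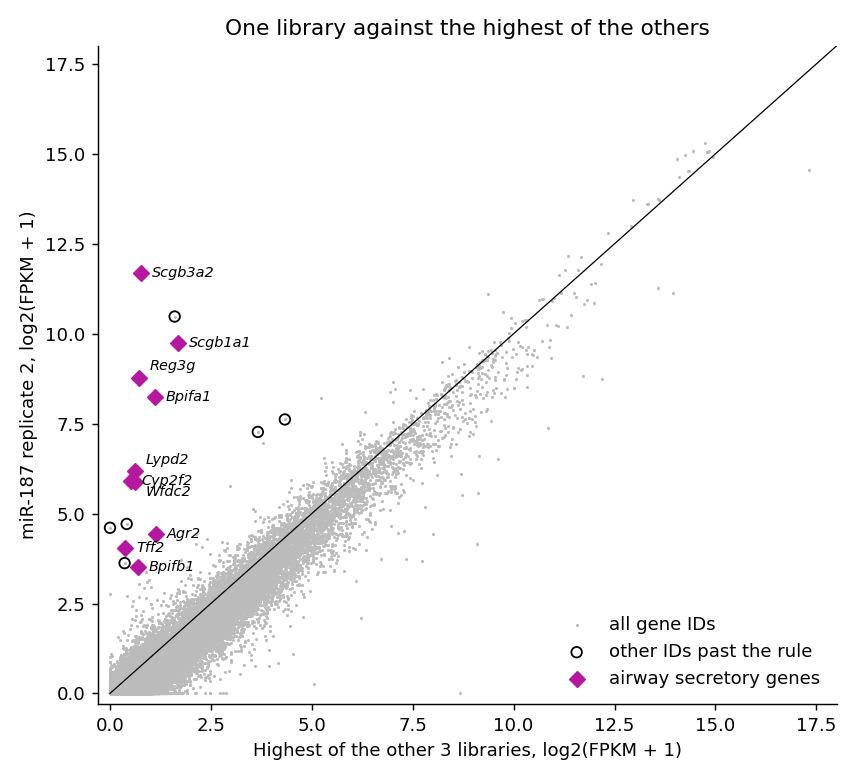
Each gene ID by the highest of the other 3 libraries (horizontal) and miR-187 replicate 2 (vertical), both as log2(FPKM + 1), with the line of equal values. The 10 airway secretory genes (diamonds, named) lie at the left edge above the cloud of all IDs, up to *Scgb3a2* at 3297 FPKM, and the 6 other IDs (open circles) also lie above the cloud, 2 of them farther to the right.

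Because 1 of 2 libraries carried the signal, the comparison of miR-187 with WT gave these genes large means and equally large spreads. *Scgb3a2* had a mean of 1649 ± 2331 FPKM in miR-187 and 0.484 ± 0.305 FPKM in WT (SD, n = 2 each). *Bpifb1*, at the other end, had 5.53 ± 6.96 FPKM against 0.479 ± 0.0393 FPKM (SD, n = 2 each). In all 10 genes the SD in miR-187 exceeded the mean. With n = 2 this follows from choosing genes that are high in miR-187 replicate 2 and low in miR-187 replicate 1. The difference between groups in log2(FPKM + 1) ran from 1.54 (*Bpifb1*) to 5.48 (*Scgb3a2*) with a median of 2.79, beside -0.04 over the 14325 genes tested. Without miR-187 replicate 2 no gene of the list passed the filter on the mean. With the filter also dropped, a setting chosen after seeing the data, the median over the list was -0.07. This is the difference of miR-187 replicate 1 from WT given above. The miR-187 values were both higher than either WT value for *Bpifb1* and *Wfdc2* only, that is 2 of 10 genes, beside 12.3% of all genes tested. The choice of the list already placed miR-187 replicate 2 above WT for each gene, so nothing is read from this count.

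In the limma comparison of miR-187 with WT over all genes, 0 of the 14325 genes tested (0%) were called higher in miR-187 and 1 gene (0.00698%) was called in either direction at a Benjamini-Hochberg adjusted p under 0.05, with 447 genes at an unadjusted p under 0.05. These counts depended on the processing: 27 higher and 9 lower genes were called with trimmed mean of M-values (TMM) factors, 33 and 18 with a replicate block, 31 and 15 with a minimum mean of 0.1 FPKM, and between 24 and 96 in all with 1 library left out. All 10 airway secretory genes entered this comparison through their value in miR-187 replicate 2, since none reached a mean of 1 FPKM over the other 3 libraries. The count of 0 genes called higher therefore covers them too. As the comparison holds the values by which they were chosen, nothing is read from that. No p-value is given for them, and whether they were among the genes called under other settings is not reported here.

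The genes lie apart in the genome. Positions are from RefSeq on GRCm38.p6, the assembly also called mm10, which the submitters' processing notes name, and are given for 9 of the 10 genes. The position of *Scgb3a2* is not reported here, so what follows leaves out the gene with the highest level. These 9 protein-coding genes lay on 7 chromosomes. *Bpifa1* (chr2:154142880-154149217) and *Bpifb1* (chr2:154190818-154220343) belong to 1 cluster, with 41600 bp and 1 coding gene, *Bpifa5*, between them. *Wfdc2* (chr2:164562715-164568510) is on the same chromosome, farther along. *Scgb1a1* lies at chr19:9083642-9087956, *Reg3g* at chr6:78466269-78468874, *Cyp2f2* at chr7:27119955-27133660, *Lypd2* at chr15:74732246-74734795, *Agr2* at chr12:35992925-36004081 and *Tff2* at chr17:31141062-31144282.

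Most of these genes are compact, with spans from 2550 bp (*Lypd2*) to 29526 bp (*Bpifb1*), and 8 of the 9 are shorter than the median span of 17149 bp over the protein-coding genes of the RefSeq table. None overlapped another annotated gene. Several stand beside relatives of the same family: *Tff2* between *Tff3* and *Tff1*, *Agr2* next to *Agr3*, *Reg3g* next to *Reg1*, *Bpifa1* between *Bpifa3* and *Bpifa5*, and *Cyp2f2* between *Cyp2a12* and *Cyp2t4*. Whether these neighbours were also high in miR-187 replicate 2 was not analysed here, because the RefSeq table holds no Ensembl IDs. For the same reason, sharing of reads between relatives could not be followed, although 0 of the 10 IDs had the same 4 values as another ID.

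Markers of airway ciliated and basal cells, alveoli, general epithelium, cartilage, oesophagus, stomach, thymus, thyroid, liver, heart muscle and endothelium were drawn up by symbol and could not be matched to IDs. The levels of these cell types in miR-187 replicate 2, and the identity of the 4 libraries as heart, were therefore not analysed here, and the part of any other tissue in the values of the list was not tested. The labels give no dissection, extraction or sequencing batch that sets this library apart.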

How the data were processed

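Total RNA was turned into paired-end mRNA-seq libraries, 2 of WT and 2 of miR-187. The labels name heart as its source, while the methods of the study name cardiac endothelial cells of newborn mice. The authors deposited 1 table of FPKM values by Ensembl gene ID. The submitters' processing notes name HISAT2, StringTie, DESeq2 and mm10; versions, annotation, use of strand and the role of each tool are not given in the sources used here. FPKM is relative to gene length and library total and holds no counts, so depth is unknown and precision rests on 2 libraries per group.

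The 10 genes and the marker lists were chosen with earlier results of these data known. Names came from the gene list itself. Besides these 10, the rule named IDs high in miR-187 replicate 2 alone, in order of their distance, at most 2 without a name. Marker lists, protein features and promoter motifs were planned and are not analysed here, as no table paired symbols with IDs and no sequences were used. The 10 symbols were looked up in a RefSeq table (GRCm38.p6, 49993 placed genes).

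Values were taken as log2(FPKM + 1). IDs whose mean reached 1 FPKM were compared between groups with limma 3.58.1 in R 4.3.3 (eBayes with a trend, two-sided, Benjamini-Hochberg adjustment). The fit was also run on simulated normal values, with spreads drawn at random across genes and no gene set high in a single library. That setting differs from these data, so it is no check of the fit for genes such as those of the list. With 2 against 2 libraries an exact permutation test cannot reach 0.05 and was not used. Alternatives were other pseudocounts, filters and scalings, a fit with a replicate block, and fits that left out each library. TMM factors (30% and 5% trimmed) multiplied each library's FPKM sum. Python 3.11.15 and matplotlib 3.10.9 were used.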

Additional observations from a re-analysis of the deposited data

How the results depend on the processing

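The count of 10 airway secretory genes past 10 FPKM and 10-fold in miR-187 replicate 2 was also 10 under median centring and TMM factors. At a fold of 20 it was 8. With a fold of 5, with a minimum of 1 FPKM and without each of the other 3 libraries it was 10. Those settings loosen the rule, so the count could not fall there. As the genes were chosen for this pattern, nothing is read from these counts. The count cannot be had without miR-187 replicate 2. The median distance from the highest other library, 5.48, moved by more than the spread of the low libraries to 5.72 with TMM factors and to 6.82 with a pseudocount of 0.1, which by construction widens differences at low values; without each other library it ran from 5.48 to 5.51. The median group difference of the list, 2.79, became 3.72 with a pseudocount of 0.1 and 3.24 with a minimum mean of 5 FPKM (8 genes left). With 1 library left out it was lowest at 2.75, when WT replicate 2 was dropped, and highest at 5.56, when miR-187 replicate 1 was dropped, and without miR-187 replicate 2 no gene of the list passed the filter. With the filter also dropped, an alternative chosen after seeing the data, it was -0.07.

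The number of genes called by limma, 1 in all, became 46 (31 higher, 15 lower) with a minimum mean of 0.1 FPKM, 36 (27 higher, 9 lower) with TMM factors, 0 with a minimum mean of 5 FPKM and 0 without a filter, with 153 and 1122 genes at an unadjusted p under 0.05 in the last 2; it was 1 with a pseudocount of 0.1, median centring and eBayes without a trend. The replicate block gave 51 (33 higher, 18 lower). Same-numbered libraries did not deviate together across genes (r = -0.0675) and no label ties them to a litter or batch, so they were read as unpaired. With 1 library left out, the lone library being assumed to vary like the other group, calls were fewest, 24, when miR-187 replicate 2 was dropped and most, 96, when WT replicate 1 was dropped, with infinite prior degrees of freedom in all 4, as in the fits with a minimum mean of 0.1 FPKM, TMM factors and the block, so that the spread within a gene has no weight there. Marker lists gave no value under any setting.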
